A study of Mus musculus with 24 samples.

Results

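Hematopoietic stem and progenitor cells (HSPCs) sorted from mouse bone marrow 20 weeks and 2 weeks after transplantation were compared, in 8 of the 24 RNA-seq libraries of the series. Libraries were grouped by their labels: 2 Srcap mutant and 2 WT libraries at 20 weeks, and 2 Srcap mutant and 2 WT libraries at 2 weeks. All were from C57BL6/J mice. The comparison and the gene lists below were chosen with earlier results of these data known. The 20-week cells came from competitive transplantation, and the series describes them as the donor test cells carrying CD45.2. The 2-week cells came from a transplantation not called competitive. Srcap encodes a chromatin remodelling ATPase, the motor of a complex that deposits H2A.Z, a variant histone, into nucleosomes. The file headers call the mutants het at 20 weeks and Mut at 2 weeks. The nature of the allele, the preparation of the recipients and the ages of donors and recipients were not stated in the labels or headers. The 4 untreated HSPC libraries of the series, 2 Srcap mutant and 2 WT, serve below only as a level to set beside the others.

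A transplanted stem cell enters a marrow emptied of its own blood formation, and in the first weeks the progeny of the graft divide and differentiate quickly to restore red cells and granulocytes. Months later, long-term engrafting stem cells are known to have mostly returned to rest, and blood formation from the graft includes B and T cells. The file headers also label these libraries LSK, the usual name for marrow cells without mature lineage markers that carry Sca-1 and Kit. This gate holds stem cells and multipotent progenitors and should lack mature blood cells.

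Other differences between the 20-week and 2-week sets go with time. Their files stand in different alignment directories in their headers. All 4 libraries at 20 weeks were male, with Xist at most 0.484 CPM and the Y-linked gene Ddx3y at 32.6 CPM or more, and all 4 at 2 weeks were female, with Xist at 545 CPM or more and Ddx3y at 0. Directory, sex and the kind of transplantation cannot be told apart from time, and a difference between 20 and 2 weeks below is a difference between these sets. The 4 untreated libraries were male as well, with Xist at most 0.421 CPM and Ddx3y at 92.6 CPM or more. Their files stand in a directory other than those of both transplant sets. Where untreated levels below lie nearer to 20 weeks than to 2 weeks, sex goes with that difference too. Total counts, in units of 1e6, were 52.3 to 78.4 at 20 weeks and 26.4 to 49.8 at 2 weeks. Transcripts of immunoglobulin genes and Jchain made up 16.9% to 26.7% of the counts at 20 weeks and 0.845% to 1.86% at 2 weeks, and were taken out before scaling together with the sex chromosomes. CPM below are counts per 1e6 of the remaining autosomal counts. The first principal component held 51.3% of the variance and separated the times. The second held 14.4% and set the 2 mutant libraries at 2 weeks apart from the rest and from each other. These 2 libraries also listed fewer genes with a count, 17795 and 18326, against 19903 and 21603 in the WT libraries at 2 weeks and 19869 to 21486 at 20 weeks. The labels call the samples independent but name no animals, so the p-values measure the spread between these libraries, which may in part be technical.

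Of 17273 autosomal genes tested with genotype as a covariate, 6346 were called (36.7%): 3459 rose (20.0%) and 2887 fell (16.7%) at 20 weeks relative to 2 weeks in edgeR's quasi-likelihood test at a Benjamini-Hochberg adjusted p under 0.05. At least 2-fold differences among these calls were more often rises, with 1968 genes (11.4%) higher and 919 (5.32%) lower. The 4 libraries of one time lay above the 4 of the other for 3883 genes (22.5%) that were higher at 20 weeks and 2651 (15.3%) that were lower. The median log2 fold change of all genes was 0.08. Among the 10780 more abundant genes, those whose log2 CPM averaged 2 or more, 24.4% rose and 23.7% fell. Because so many genes were called, counts within the gene lists below are to be read against these shares.

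**Figure D1:**
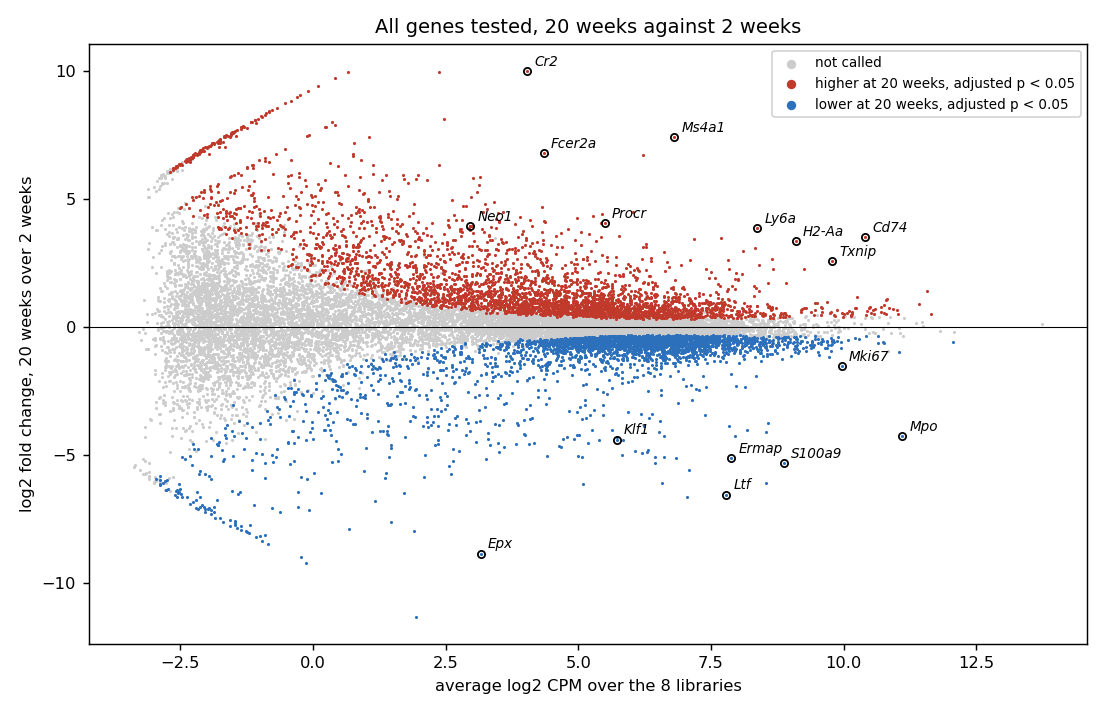
Each point is one of the 17273 genes tested, with the average log2 CPM over the 8 libraries on the horizontal axis and the log2 fold change of 20 weeks over 2 weeks on the vertical axis. Red genes rose and blue genes fell at 20 weeks, and the slanted lines of points at low abundance include the 127 called genes with no count at 2 weeks and the 65 with none at 20 weeks, whose fitted sizes depend on the prior count.

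Srcap itself (GRCm39 chromosome 7, 127111155 to 127160391) was at 3.61 and 11.2 CPM in the mutant and 8.1 and 10.3 CPM in the WT libraries at 20 weeks, against 12.3 and 13.7 CPM in the mutant and 15.2 and 14.5 CPM in the WT libraries at 2 weeks. Every 20-week library lay below every 2-week library, and mutant replicate 1 at 20 weeks was the lowest. The log2 fold change was -0.81 ± 0.29, with adjusted p = 0.0407 in edgeR, and it missed the threshold without any one of 6 of the libraries, with estimates from -0.83 to -0.55. Transcripts of Kit, Cd34 and Ptprc were present throughout. Of the LSK antigens, Sca-1 is encoded by Ly6a, which held 616 to 647 CPM at 20 weeks and 32.4 to 51 CPM at 2 weeks. Kit, the receptor for stem cell factor, was at 398 and 624 CPM in the mutant and 675 and 591 CPM in the WT libraries at 20 weeks, against 358 and 405 CPM in the mutant and 425 and 386 CPM in the WT libraries at 2 weeks, and the ranges of the times overlapped. Cd34, a sialomucin of stem and progenitor cells, averaged 824 ± 73.8 CPM at 20 weeks and 577 ± 96.3 CPM at 2 weeks, and Ptprc, which encodes CD45, averaged 429 ± 66.4 CPM at 20 weeks and 237 ± 22.8 CPM at 2 weeks (SD, n = 4 each). All 3 rose, Kit by 0.48 ± 0.15 and Cd34 by 0.47 ± 0.13 on the log2 scale with edgeR adjusted p of 0.0185 and 0.0101, and Ptprc by 0.80 ± 0.13 with 0.000271. The Kit call was lost without mutant replicate 2 or WT replicate 1 at 20 weeks or WT replicate 2 at 2 weeks.

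Genes that mark long-term stem cells rose together. Of the 29 members of this list tested, out of 30 listed, 27 rose and 0 fell, with a median log2 fold change of 2.04, beside 20.0% and 16.7% of all genes and their median of 0.08. Ly6a, which encodes Sca-1, one of the antigens of the LSK gate, was at 616 and 619.9 CPM in the mutant and 642 and 647 CPM in the WT libraries at 20 weeks, against 41.1 and 32.4 CPM in the mutant and 43.4 and 51 CPM in the WT libraries at 2 weeks. The lowest 20-week library thus stood more than 10-fold above the highest at 2 weeks, and replicates of both genotypes lay close together. The log2 fold change was 3.86 ± 0.15 with edgeR adjusted p = 7.0e-10, and untreated HSPCs held 184 to 232 CPM, between the transplant sets. Procr, the endothelial protein C receptor that enriches for stem cells, was at 103 and 89.7 CPM in the mutant and 89.6 and 64.2 CPM in the WT libraries at 20 weeks, against 4.69 and 5.35 CPM in the mutant and 5.61 and 4.36 CPM in the WT libraries at 2 weeks, a rise of 4.05 ± 0.17 on the log2 scale (edgeR adjusted p = 7.79e-10). Hlf, a transcription factor restricted to the most primitive cells of the marrow, was at 319 and 408 CPM in the mutant and 405 and 451 CPM in the WT libraries at 20 weeks, against 56.7 and 64.4 CPM in the mutant and 60.4 and 65.3 CPM in the WT libraries at 2 weeks, a log2 rise of 2.62 ± 0.13. Untreated libraries held Hlf at 438 to 691 CPM, close to or above the 20-week range.

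Esam, an endothelial and stem cell adhesion molecule, and the transcriptional regulators Mecom and Meis1 rose by 2.67 ± 0.17, 2.04 ± 0.17 and 1.52 ± 0.15 on the log2 scale. Clec1a, a lectin-like receptor, rose by 4.87 ± 0.91, but mutant replicate 1 at 2 weeks held 2.25 CPM where the other 3 held at most 0.335 CPM. Without WT replicate 1 or WT replicate 2 at 2 weeks its edgeR adjusted p was 0.0542 and 0.0525. The exceptions in the list were Gata2, a transcription factor of stem cells, megakaryocytes and mast cells, and Ramp2. Gata2 averaged 117 ± 12.6 CPM at 20 weeks and 126 ± 31.9 CPM at 2 weeks, with a log2 fold change of -0.14 ± 0.16 and edgeR adjusted p = 0.54. As a whole the list took 0.27% to 0.326% of the counts at 20 weeks, against 0.0709% to 0.087% at 2 weeks. In untreated HSPCs it took 0.188% to 0.263%, so the 2-week libraries were the low ones of the 3 conditions, as the plot of list shares shows. In bulk RNA, fewer cells of a type and less RNA per cell cannot be told apart.

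**Figure D2:**
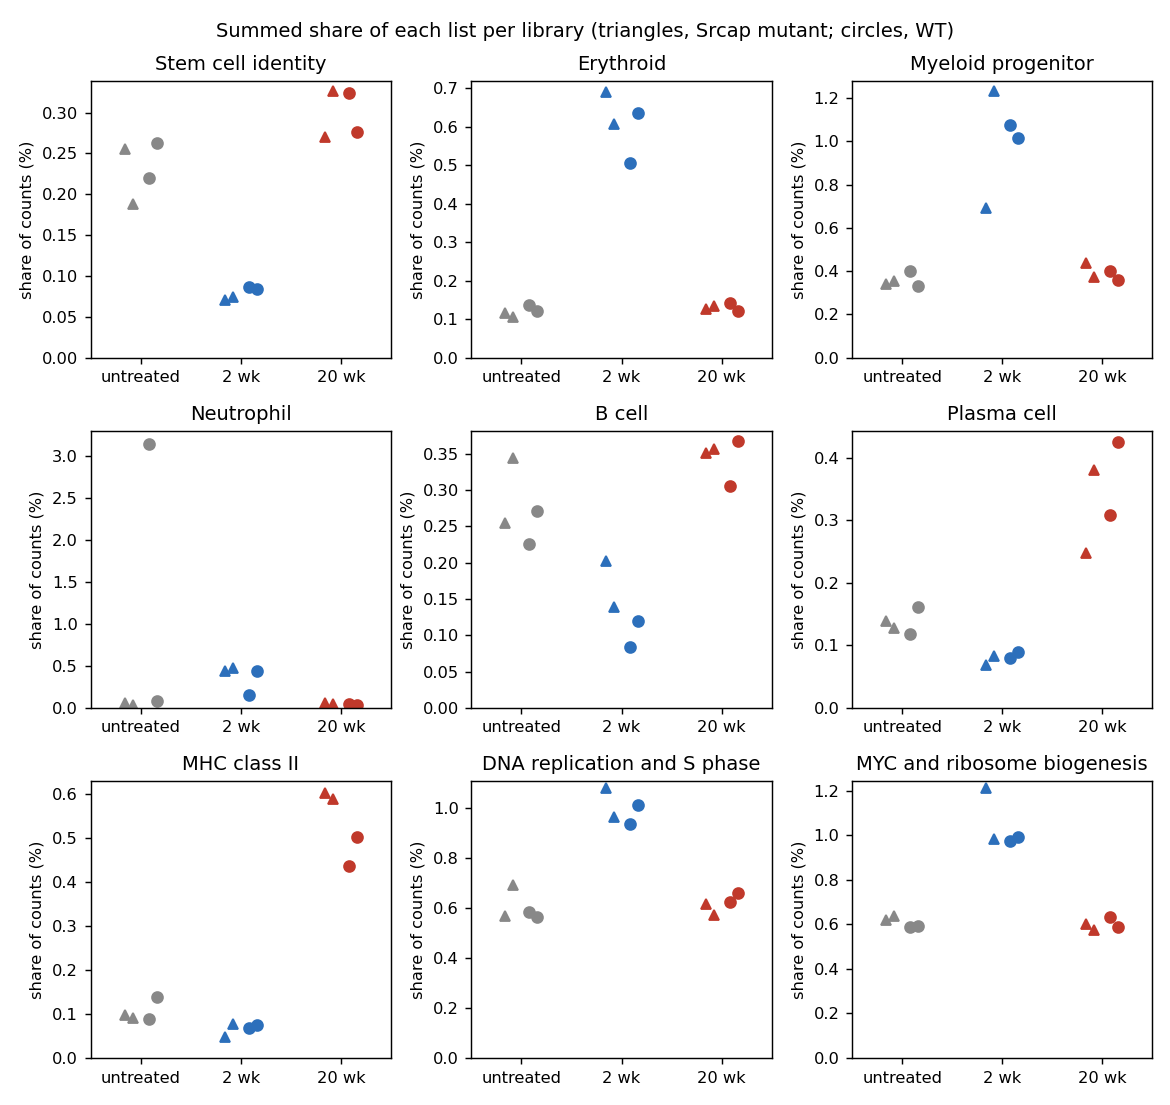
Each panel gives the percent of autosomal counts, immunoglobulin genes left out, held by one gene list in each library, in untreated, 2-week and 20-week HSPCs. Triangles are Srcap mutant and circles WT libraries. The stem cell list is lowest at 2 weeks, the erythroid, myeloid progenitor, S phase and ribosome biogenesis lists are highest there, 1 untreated WT library reaches 3.14% in the neutrophil panel, and the MHC class II and plasma cell lists are highest at 20 weeks.

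Most genes tied to rest and restrained growth also rose. Of 17 tested, 12 rose and 1 fell, with a median log2 fold change of 1.09. With mutant libraries alone 7 rose, with a median of 0.58, and with WT libraries alone 12 rose, with a median of 0.83. Txnip, which restrains glucose uptake and is high in resting stem cells, was at 1488 and 1783 CPM in the mutant and 1493 and 1355 CPM in the WT libraries at 20 weeks, against 199 and 239 CPM in the mutant and 308 and 254 CPM in the WT libraries at 2 weeks. The sets did not overlap, and the log2 fold change was 2.57 ± 0.16 with edgeR adjusted p = 2.89e-08. Btg1, an antiproliferative factor, the transcription factor Klf6 and the atypical cyclin Ccng2 rose by 1.61 ± 0.14, 1.51 ± 0.13 and 1.13 ± 0.12 on the log2 scale. Cdkn1c, the cell cycle inhibitor p57 that holds stem cells in rest, averaged 9 ± 0.845 CPM at 20 weeks and 1.46 ± 0.998 CPM at 2 weeks and rose by 2.64 ± 0.71. The inhibitor gene Cdkn1a had a log2 fold change of 0.02 and did not pass, and Tsc1, a brake on mTOR, fell by 0.38 on the same scale. Of 23 genes that have been reported as higher in stem cells of aged mice, 18 rose and 2 fell, with a median of 1.95. As a whole this list took 0.0544% to 0.077% of the counts at 20 weeks, against 0.0446% to 0.0468% at 2 weeks. In untreated HSPCs it took 0.0145% to 0.0226%, below both transplant sets. The ectoenzyme Cd38 was at 30.5 and 35.6 CPM in the mutant and 35.1 and 25.4 CPM in the WT libraries at 20 weeks, against 5.42 and 2.6 CPM in the mutant and 3.47 and 4.79 CPM in the WT libraries at 2 weeks. It rose by 2.88 ± 0.24 on the log2 scale, and the stress-response gene Nupr1 and the netrin receptor Neo1 rose by 3.93 ± 0.38 and 3.94 ± 0.43. The 2 that fell were the metallothioneins Mt1 and Mt2, metal-binding proteins, with log2 fold changes of -1.23 and -1.56. Mt2 averaged 23.4 ± 10.3 CPM at 20 weeks and 66.5 ± 5.01 CPM at 2 weeks (SD, n = 4 each), against 0.67 to 3 CPM in untreated HSPCs, so both transplant sets stood above the untreated libraries. Neo1, Clec1a, Slamf1 and Vwf are in both this list and that of stem cell genes, so the counts are not independent.

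Proliferation genes moved the other way. Of 35 genes of G2 and M phase tested, 32 fell and 0 rose (median -0.79), and of 36 genes of DNA replication and S phase 29 fell and 0 rose (median -0.71). Mki67, which encodes the proliferation antigen Ki-67, was at 389 and 494 CPM in the mutant and 552 and 632 CPM in the WT libraries at 20 weeks, against 2094 and 1338 CPM in the mutant and 959.5 and 1420 CPM in the WT libraries at 2 weeks. The sets did not overlap, although the 2-week values were spread widely, with mutant replicate 1 the highest. Its log2 fold change was -1.54 ± 0.23 with edgeR adjusted p = 0.000123. The hyaluronan receptor of the spindle Hmmr, the cytokinesis protein Anln, the kinetochore scaffold Knl1 and the kinesin Kif20a all fell, with log2 fold changes of -1.24 ± 0.13, -1.26 ± 0.15, -1.30 ± 0.16 and -1.19 ± 0.15. Ccne1, the cyclin that drives entry into S phase, was at 26.6 and 22.1 CPM in the mutant and 21.4 and 20.8 CPM in the WT libraries at 20 weeks, against 133 and 82.8 CPM in the mutant and 77.6 and 99.5 CPM in the WT libraries at 2 weeks, the largest fall of the S phase list, with a log2 fold change of -2.17 ± 0.17. Mcm10, Orc1 and Cdc6, which prepare origins of replication for firing, had log2 fold changes of -1.40 ± 0.12, -1.65 ± 0.17 and -1.20 ± 0.13. Other G1 cyclins did not pass: Ccne2, the second E-type cyclin, had a log2 fold change of -0.23 and the D-type cyclins Ccnd1, Ccnd2 and Ccnd3 had 0.29, 0.25 and 0.19. In the list of G1 cyclins and kinases, 6 of 15 fell and 1 rose, or 3 rose without mutant replicate 1 at 20 weeks. Cdk6, a kinase that sets the readiness of stem cells to divide, averaged 373 ± 25.1 CPM at 20 weeks and 712 ± 12.1 CPM at 2 weeks and fell by 0.99 on the log2 scale. S phase genes took 0.572% to 0.66% of the counts at 20 weeks, against 0.938% to 1.08% at 2 weeks, and 0.565% to 0.694% in untreated libraries, a range that overlaps that of 20 weeks. G2 and M phase genes took 0.357% to 0.466% of the counts at 20 weeks, against 0.598% to 0.877% at 2 weeks, and 0.486% to 0.677% in untreated libraries, a range that lies above the 20-week one and reaches into that of 2 weeks.

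The promoters of a few of these genes are printed because the members of their lists moved together and each holds the sequence element textbook accounts assign to its group. They are the 250 bases before the RefSeq start, from RefSeq on build GRCm38.p6, which differs from the build of the count files, in the direction of the gene. Capitals mark each match on either strand, and a match is a description of letters, not of bound protein. For S phase genes the letters were TTTNGCGC, the E2F box, in Mcm5 at chr8:75109259-75109508 (plus strand) and Mcm6 at chr1:128359706-128359955 (minus strand), which encode subunits of the replicative helicase. For G2 and M phase genes they were TTTGAA, the cell cycle genes homology region, in Cdc20 at chr4:118437344-118437593 (minus strand), an activator of the anaphase-promoting complex.
Mcm5: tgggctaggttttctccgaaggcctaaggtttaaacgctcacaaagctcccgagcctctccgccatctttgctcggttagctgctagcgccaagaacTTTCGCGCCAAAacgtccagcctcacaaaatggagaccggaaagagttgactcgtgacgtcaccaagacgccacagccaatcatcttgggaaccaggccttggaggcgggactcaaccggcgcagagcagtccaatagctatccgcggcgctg
Mcm6: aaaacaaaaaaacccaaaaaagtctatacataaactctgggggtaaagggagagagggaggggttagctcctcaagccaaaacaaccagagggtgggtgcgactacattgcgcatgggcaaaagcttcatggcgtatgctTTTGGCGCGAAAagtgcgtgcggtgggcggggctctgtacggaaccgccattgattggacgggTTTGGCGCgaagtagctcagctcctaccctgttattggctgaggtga
Cdc20: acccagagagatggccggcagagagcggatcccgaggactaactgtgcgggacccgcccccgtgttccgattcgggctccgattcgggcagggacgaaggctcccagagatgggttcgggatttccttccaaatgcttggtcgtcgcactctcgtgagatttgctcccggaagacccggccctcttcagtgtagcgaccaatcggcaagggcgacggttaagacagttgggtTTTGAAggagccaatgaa
Matches of the E2F box overlap each other on the 2 strands in Mcm5, 153 and 149 bases before the start, and in Mcm6, 110 and 106 bases before it, with a further match at 47 bases. This box stands in 4 of the 28 S phase members with a RefSeq promoter (14.3%), beside 1.15% of all 27025 promoters of that length, and TTTGAA stands in 9 of 29 G2 and M phase members (31.0%), beside 16.3%. Mcm5 was at 364 and 367 CPM in mutant and 367 and 411 CPM in WT cells at 20 weeks and 699.7 and 754 CPM in mutant and 734 and 764 CPM in WT cells at 2 weeks, and the sets did not overlap. The log2 fold changes of Mcm5, Mcm6 and Cdc20 were -1.02 ± 0.12, -0.60 ± 0.13 and -0.93 ± 0.13, and all 3 passed.

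Genes of ribosome assembly and of repair by homologous recombination fell with them. Of 29 targets of MYC and factors of ribosome biogenesis, 26 fell and 0 rose, with a median log2 fold change of -0.89. Nolc1, a nucleolar chaperone, was at 158 and 183 CPM in the mutant and 151 and 178 CPM in the WT libraries at 20 weeks, against 426 and 375 CPM in the mutant and 369 and 382 CPM in the WT libraries at 2 weeks. The sets were far apart relative to their spread, with a log2 fold change of -1.26 ± 0.13 (edgeR adjusted p = 3.93e-06), and the untreated libraries at 143 to 159.8 CPM overlapped the 20-week ones. Myc itself averaged 227 ± 13.2 CPM at 20 weeks and 334 ± 52.7 CPM at 2 weeks (SD, n = 4 each) and fell by 0.60 on the log2 scale. Of 31 genes of homologous recombination and the Fanconi pathway, 22 fell and 1 rose, with a median of -0.73. Fanca, a subunit of the Fanconi core complex, was at 23.3 and 24.3 CPM in the mutant and 27.4 and 28.5 CPM in the WT libraries at 20 weeks, against 63.2 and 75.5 CPM in the mutant and 93.4 and 79.5 CPM in the WT libraries at 2 weeks, with a log2 fold change of -1.64 ± 0.13. Rad54l, a motor protein of strand exchange, the helicase gene Blm and Brca1 had log2 fold changes of -1.32 ± 0.14, -1.32 ± 0.15 and -1.05 ± 0.15. The single rise was not called when any one library other than mutant replicate 1 at 20 weeks was left out. The structural proteins of the ribosome did not follow its assembly factors. Of 67 cytosolic ribosomal protein genes, 37 rose and 1 fell, with a median of 0.48, led by Rps27 and Rps24 at 1.19 ± 0.18 and 1.09 ± 0.19. They took 7.95% to 11.7% of the counts at 20 weeks, against 6.2% to 7.05% at 2 weeks, and mutant replicate 1 at 20 weeks held the highest share. Without that library 29 rose, and 21 rose without mutant replicate 2 at 2 weeks. Many ribosomal protein genes have processed copies elsewhere in the genome, so counts could be split between them.

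**Figure D3:**
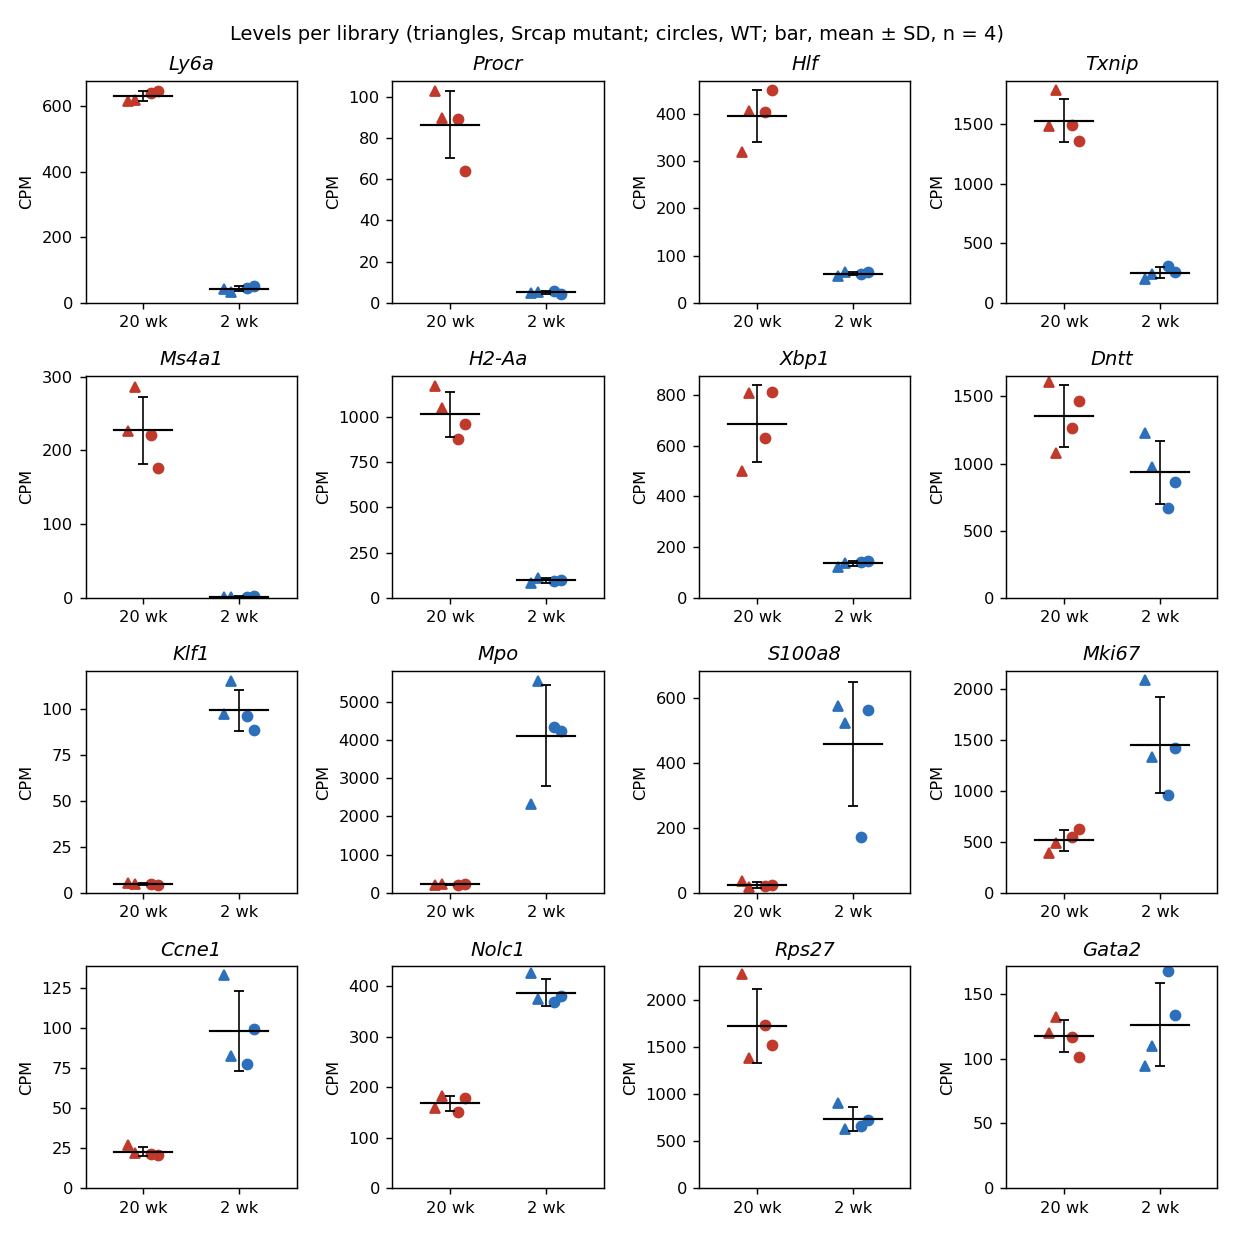
Levels in CPM of 16 genes in each library, at 20 weeks on the left and at 2 weeks on the right of each panel, with triangles for Srcap mutant and circles for WT libraries and the mean ± SD of 4 libraries. The sets overlap for Dntt and Gata2 and not for the other 14 genes.

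All 25 erythroid genes tested fell, with a median log2 fold change of -2.67. With WT libraries alone 20 of them were called lower, and with mutant libraries alone 24. The median lay between -2.72 and -2.53 when any 1 library was left out. Klf1, the master transcription factor of red cell genes, was at 5.29 and 4.79 CPM in the mutant and 4.91 and 4.34 CPM in the WT libraries at 20 weeks, against 97.5 and 115 CPM in the mutant and 96 and 88.4 CPM in the WT libraries at 2 weeks. Replicates lay close together at both times, far from the other time, with a log2 fold change of -4.41 ± 0.14 and edgeR adjusted p = 3.1e-10. Ermap, a membrane protein of erythroid cells, was at 8.71 and 18.5 CPM in the mutant and 12.4 and 13.5 CPM in the WT libraries at 20 weeks, against 584 and 419.7 CPM in the mutant and 367 and 429.5 CPM in the WT libraries at 2 weeks, a log2 fold change of -5.13 ± 0.24. Both are printed with their GATA box, the letters GATAA, which the erythroid factor GATA1 is known to bind, Klf1 at chr8:84901732-84901981 (plus strand) and Ermap at chr4:119189996-119190245 (minus strand).
Klf1: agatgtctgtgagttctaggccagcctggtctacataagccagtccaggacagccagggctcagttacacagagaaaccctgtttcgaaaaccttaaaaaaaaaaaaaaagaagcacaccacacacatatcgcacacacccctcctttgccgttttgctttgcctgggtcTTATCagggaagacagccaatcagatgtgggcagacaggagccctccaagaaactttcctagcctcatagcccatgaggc
Ermap: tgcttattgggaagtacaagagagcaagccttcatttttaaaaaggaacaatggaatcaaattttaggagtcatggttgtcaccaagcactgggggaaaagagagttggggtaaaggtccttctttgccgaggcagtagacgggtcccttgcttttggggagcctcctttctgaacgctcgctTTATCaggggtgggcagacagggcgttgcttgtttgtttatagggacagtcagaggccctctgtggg
In these 2 promoters the match lies on the other strand, 80 and 67 bases before the start. GATAA stands in 11 of 18 erythroid members with a RefSeq promoter (61.1%), beside 23.0% of all promoters. The membrane skeleton genes Add2 and Ank1, the water channel Aqp1 and the lipid kinase Sphk1 fell as well, with log2 fold changes of -5.33 ± 0.19, -5.12 ± 0.21, -4.13 ± 0.15 and -5.01 ± 0.19. The 4 globin genes of the list, whose paralogs can share reads, had log2 fold changes from -2.40 for Hba-a1 to -1.83 for Hbb-bt. Gata1 and Alas2 lie on the X chromosome and were not tested. The list took 0.121% to 0.141% of the counts at 20 weeks, against 0.507% to 0.689% at 2 weeks and 0.104% to 0.136% in untreated HSPCs, so the 20-week range overlapped the untreated one. The part of erythroid cells in these falls was not tested. With the erythroid and other cell type lists left out of the scaling, a choice made after seeing the data, 3222 genes rose and 3065 fell.

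Iron and heme genes fell alongside, 14 of 18 tested with 0 rises and a median log2 fold change of -1.35. Tfrc, the transferrin receptor, was at 88.6 and 96.3 CPM in the mutant and 85.6 and 75.5 CPM in the WT libraries at 20 weeks, against 520 and 371 CPM in the mutant and 377 and 371 CPM in the WT libraries at 2 weeks. Mutant replicate 1 at 2 weeks stood well above the other 3 libraries of that time, and all 4 lay far above every 20-week library. Tfrc had a log2 fold change of -2.30 ± 0.14 and the ferrireductase Steap3 -2.46 ± 0.14. Ferritin genes Fth1 and Ftl1, which store iron, had -0.03 and 0.23 and did not pass. Tfrc, Cpox, Fech and Urod stand in the erythroid list too.

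Myeloid progenitor genes were mostly lower at 20 weeks. Of 20 tested, 13 fell and 1 rose, with a median log2 fold change of -1.05. Mpo, myeloperoxidase of the primary granules, was at 211 and 224 CPM in the mutant and 211 and 229 CPM in the WT libraries at 20 weeks, against 2332 and 5535 CPM in the mutant and 4345 and 4233 CPM in the WT libraries at 2 weeks. The 4 libraries at 20 weeks lay close together and far below the 2-week libraries, of which mutant replicate 1 was the lowest. The log2 fold change was -4.28 ± 0.23 with edgeR adjusted p = 9.98e-09, and untreated HSPCs held 142 to 186 CPM. The granule protease genes Ctsg, Elane and Prtn3 fell with it, with log2 fold changes of -4.05 ± 0.20, -3.86 ± 0.23 and -2.35 ± 0.23. The transcription factor Cebpa, which drives granulocyte fate, fell by 1.57 on the log2 scale. Spi1 and Gfi1, factors of myeloid cells that are also on in stem cells, had log2 fold changes of -0.16 and 0.22 and did not pass, and the proteoglycan gene Srgn rose by 0.67 ± 0.13. Genes of mature neutrophils, which the gate should lack, fell in 17 of 20 cases with 1 rise, and the median was -5.24. Ltf, lactoferrin of the secondary granules, was at 16.2 and 5.92 CPM in the mutant and 0.441 and 2.75 CPM in the WT libraries at 20 weeks, against 459 and 562 CPM in the mutant and 157 and 523 CPM in the WT libraries at 2 weeks. WT replicate 1 was the lowest of the 2-week libraries here, and the sets did not overlap. The neutrophil list took 0.0356% to 0.053% of the counts at 20 weeks, against 0.146% to 0.469% at 2 weeks, and 0.039% to 3.14% in untreated HSPCs, where WT replicate 1 held the highest share. All 20 neutrophil genes had counts at both times. The part of neutrophils in the fall of myeloid genes was not tested. Of these falls, those of Ngp, Lcn2 and Camp missed the threshold when WT libraries alone were fitted, at edgeR adjusted p of 0.0531, 0.0587 and 0.0700, with log2 fold changes of -6.47, -6.72 and -5.90.

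Eosinophil, basophil and mast cell genes split. Of 14 tested, 9 fell and 2 rose. Epx, the eosinophil peroxidase, was at 0 and 0.0269 CPM in the mutant and 0 and 0.11 CPM in the WT libraries at 20 weeks, against 9.17 and 30.6 CPM in the mutant and 13.2 and 17.6 CPM in the WT libraries at 2 weeks, and the histidine decarboxylase gene Hdc fell by 4.55 on the log2 scale. Prg2, a granule protein of eosinophils, rose, and was at 303 and 377 CPM in the mutant and 280.2 and 273 CPM in the WT libraries at 20 weeks, against 53.8 and 89.8 CPM in the mutant and 60.1 and 108 CPM in the WT libraries at 2 weeks. Its log2 fold change was 1.93 ± 0.21, and Il5ra, the receptor chain for interleukin 5, rose by 3.71 ± 0.73. Among 20 monocyte and macrophage genes 9 fell and 2 rose. The coagulation factor gene F13a1 and the growth factor receptor gene Csf1r fell, with log2 fold changes of -4.28 ± 0.26 and -2.25 ± 0.29, while the lysosomal protease gene Ctss rose by 2.98 ± 0.17 and averaged 498 ± 83 CPM at 20 weeks and 60.9 ± 10.5 CPM at 2 weeks (SD, n = 4 each). The mast cell, basophil and eosinophil list took 0.0413% to 0.0581% of the counts at 20 weeks, against 0.0361% to 0.06% at 2 weeks, and the monocyte list took 0.0767% to 0.109% of the counts at 20 weeks, against 0.0589% to 0.0961% at 2 weeks, so both ranges overlapped between the times, and no member of either was at 0 in every library of a time.

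None of the early lymphoid or B cell genes tested was called lower at 20 weeks, and most B cell genes were called higher. Of 18 genes of early lymphoid priming, 9 rose and 0 fell, with a median log2 fold change of 0.54. Ly6d, a surface protein of lymphoid progenitors, was at 296 and 304 CPM in the mutant and 220.4 and 255 CPM in the WT libraries at 20 weeks, against 20.5 and 24.9 CPM in the mutant and 20.6 and 29.6 CPM in the WT libraries at 2 weeks, a rise of 3.43 ± 0.17. The cytokine receptor gene Flt3 rose by 0.90 ± 0.14, and Dntt, the terminal transferase of early lymphoid cells, by 0.51 ± 0.18 with overlapping libraries. The recombinase genes Rag1 and Rag2 did not pass, at 0.09 and 0.45. The early lymphoid list took 0.476% to 0.552% of the counts at 20 weeks, against 0.285% to 0.369% at 2 weeks. In untreated HSPCs it took 0.666% to 0.846%, above both transplant sets. Of 22 B cell genes, 16 rose and 0 fell, with a median of 1.90. Ms4a1, which encodes CD20, was at 227 and 286 CPM in the mutant and 220.2 and 175 CPM in the WT libraries at 20 weeks, against 0.764 and 1.36 CPM in the mutant and 0.815 and 2.11 CPM in the WT libraries at 2 weeks. Untreated libraries lay between the transplant sets, at 17.8 to 43.7 CPM. The log2 fold change was 7.42 ± 0.30, with edgeR adjusted p = 7.79e-10. The complement receptor gene Cr2 had 4 counts in all at 2 weeks, all in WT replicate 1, and was at 17.8 to 44.8 CPM at 20 weeks, and Fcer2a, the low-affinity IgE receptor CD23 of mature B cells, averaged 40.9 ± 9.3 CPM at 20 weeks and 0.368 ± 0.286 CPM at 2 weeks. The 6 members that did not pass were Pax5, Ebf1, Lef1, Vpreb1, Vpreb3 and Igll1. Pax5 and Ebf1 are factors that set B cell fate, and Vpreb1 and Igll1 belong to the surrogate light chain of B cell precursors. Pax5 was at 134 and 216 CPM in the mutant and 196 and 239 CPM in the WT libraries at 20 weeks, against 234 and 127 CPM in the mutant and 64.7 and 109 CPM in the WT libraries at 2 weeks. The sets overlapped, and mutant replicate 1 at 2 weeks held nearly the highest value of all. Igll1 averaged 203 ± 58.7 CPM at 20 weeks and 189 ± 98.7 CPM at 2 weeks (SD, n = 4 each). The difference between these 6 and the other members was seen in the data and not tested. The B cell list as a whole took 0.305% to 0.367% of the counts at 20 weeks, against 0.0843% to 0.203% at 2 weeks, and 0.226% to 0.344% in untreated HSPCs, and no member was at 0 in every library of a time. How much RNA of mature B cells contributes was not tested.

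Plasma cell and secretory genes rose in 16 of 16 cases, with a median log2 fold change of 2.35. Xbp1, the transcription factor that expands the secretory pathway, was at 498 and 809 CPM in the mutant and 629 and 811 CPM in the WT libraries at 20 weeks, against 122 and 138 CPM in the mutant and 140.2 and 146 CPM in the WT libraries at 2 weeks, a rise of 2.28 ± 0.16. The B cell maturation antigen gene Tnfrsf17 and the chaperone gene Mzb1 rose by 4.10 ± 0.28 and 2.83 ± 0.19. The list took 0.248% to 0.425% of the counts at 20 weeks, against 0.0691% to 0.089% at 2 weeks, and 0.117% to 0.161% in untreated HSPCs. This moved with the share of immunoglobulin transcripts, 16.9% to 26.7% at 20 weeks and 0.845% to 1.86% at 2 weeks, with 3.66% to 6.22% in untreated libraries. The part of plasma cells in these rises was not tested. Genes of the unfolded protein response, which plasma cells and stressed cells use, were mixed, with 7 of 17 higher and 2 lower. Dnajb9, an ER cochaperone, rose by 2.44 ± 0.17, and Hspa5, the main ER chaperone, had -0.01 and did not pass.

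MHC class II genes, which present peptides to helper T cells, rose in all 10 cases, with a median log2 fold change of 2.26. H2-Aa was at 1173 and 1049 CPM in the mutant and 881 and 961 CPM in the WT libraries at 20 weeks, against 80.3 and 111 CPM in the mutant and 90.2 and 101 CPM in the WT libraries at 2 weeks. The untreated libraries, at 78.6 to 161 CPM, overlapped the 2-week range and not the 20-week one. The rise was 3.36 ± 0.15 with edgeR adjusted p = 1.53e-09. H2-Eb1, a beta chain of the same system, was at 707 and 610 CPM in the mutant and 486 and 532 CPM in the WT libraries at 20 weeks, against 56.2 and 71.2 CPM in the mutant and 66.5 and 70.3 CPM in the WT libraries at 2 weeks, and rose by 3.08 ± 0.15. The invariant chain gene Cd74 and the transactivator gene Ciita, on which expression of these genes depends, rose by 3.50 ± 0.23 and 2.10 ± 0.21. The upstream sequences of the chain genes H2-Aa, at chr17:34287824-34288073 (minus strand), and H2-Eb1, at chr17:34305617-34305866 (plus strand), are printed with the Y box core, the letters GATTGG, in capitals.
H2-Aa: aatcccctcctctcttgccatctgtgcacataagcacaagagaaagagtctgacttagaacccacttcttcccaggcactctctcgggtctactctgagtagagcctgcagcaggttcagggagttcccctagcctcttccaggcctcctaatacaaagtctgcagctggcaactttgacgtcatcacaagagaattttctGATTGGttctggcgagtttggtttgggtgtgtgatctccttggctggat
H2-Eb1: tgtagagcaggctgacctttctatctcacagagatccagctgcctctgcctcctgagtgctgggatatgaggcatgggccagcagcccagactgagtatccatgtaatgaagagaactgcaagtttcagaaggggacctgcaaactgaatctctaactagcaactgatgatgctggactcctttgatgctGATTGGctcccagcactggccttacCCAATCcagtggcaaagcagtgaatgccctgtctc
H2-Aa holds 1 match, 49 bases before the start, and H2-Eb1 holds 2, at 60 and 35 bases, the second on the other strand. GATTGG stands in 6 of 7 members with a RefSeq promoter (85.7%), beside 15.1% of all promoters. The list took 0.437% to 0.602% of the counts at 20 weeks, against 0.0481% to 0.0768% at 2 weeks, and 0.0889% to 0.138% in untreated HSPCs, so the 20-week libraries stood above both other conditions. B cells and dendritic cells are known to carry these genes as well. Of 14 dendritic cell genes, 9 rose and 1 fell. Siglech, a receptor of plasmacytoid dendritic cells, rose by 2.36 ± 0.36 and Zbtb46, a factor of conventional ones, fell by 2.60 on the log2 scale. That list took 0.0375% to 0.0532% of the counts at 20 weeks, against 0.0231% to 0.028% at 2 weeks, and Cd209d was at 0 in every 2-week library. In untreated HSPCs the dendritic cell list took 0.0609% to 0.072%, above both transplant sets. The part of B or dendritic cells in the class II rise was not tested.

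**Figure D4:**
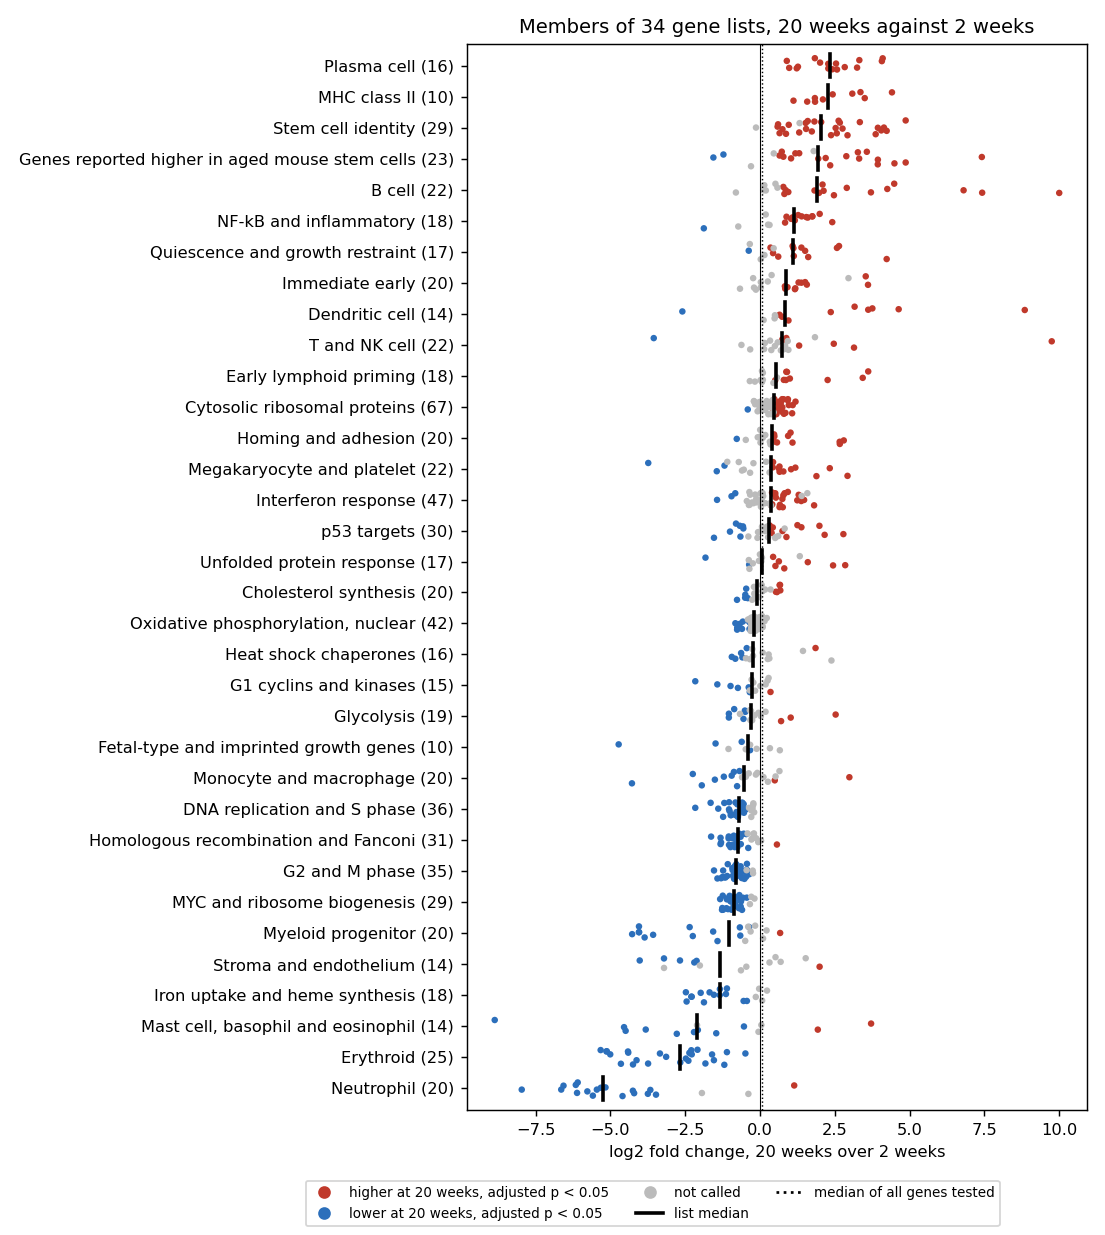
Each point is the log2 fold change of 20 weeks over 2 weeks of one member of a gene list, coloured by its call, with the list median as a black bar and the median of all genes tested as a dotted line. The number of members tested is in brackets. Plasma cell, MHC class II and stem cell lists have the highest medians, and neutrophil, erythroid and mast cell lists the lowest.

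Most genes of the NF-kB response were higher at 20 weeks. Of 18 tested, 13 rose and 1 fell, with a median log2 fold change of 1.12. Nfkbia, the inhibitor that NF-kB itself induces, was at 126 and 155 CPM in the mutant and 112 and 134 CPM in the WT libraries at 20 weeks, against 24.2 and 38.1 CPM in the mutant and 32.7 and 33.2 CPM in the WT libraries at 2 weeks, a rise of 1.99 ± 0.16. The noncanonical subunit gene Nfkb2 rose by 1.54 ± 0.18 and the ubiquitin-editing gene Tnfaip3 by 1.16 ± 0.15, and the cytokine gene Tnf fell by 1.88 on the log2 scale. Interferon-stimulated genes were mixed: 21 of 47 rose and 3 fell, with a median of 0.36. Ddx58, the sensor RIG-I, averaged 128 ± 17.7 CPM at 20 weeks and 52 ± 4.53 CPM at 2 weeks and rose by 1.24 ± 0.13, while Oasl1 had -1.44 ± 0.18 and Rsad2 0.01. The interferon count leaned on single libraries, since 13 rose without mutant replicate 2 at 2 weeks, 13 without WT replicate 2 at 2 weeks, and 5 with WT libraries alone. Immediate early genes rose in 11 of 20 cases, with 0 falls. Klf2, a factor of resting lymphocytes and vessels, rose by 3.53 ± 0.24 and Ier5 by 1.56 ± 0.13, whereas Fos, Jun and Junb had log2 fold changes of 0.02, -0.20 and 0.39 and did not pass. Of 30 p53 targets 11 rose and 7 fell, with log2 fold changes of 2.16 ± 0.30 for Trp53inp1, which promotes autophagy and growth arrest, and -1.54 ± 0.14 for Pidd1, a death domain protein. The p53 rises numbered 7 without mutant replicate 2 or WT replicate 1 at 20 weeks, or without mutant replicate 2 or either WT library at 2 weeks. Homing and adhesion genes rose in 10 of 20 cases with 1 fall. Cxcr4, the receptor that holds stem cells in the marrow, was at 334 and 307 CPM in the mutant and 246 and 198 CPM in the WT libraries at 20 weeks, against 122 and 134 CPM in the mutant and 142 and 139 CPM in the WT libraries at 2 weeks, and S1pr1, a receptor for egress from it, rose by 2.66 ± 0.20.

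Called genes with a log2 CPM averaging 2 or more and non-overlapping libraries were ranked by size, gene models left out. The largest falls mostly belonged to cell types described above, and fewer of the largest rises did. Of the 15 largest rises, Cr2, Fcer2a, Ms4a1, Fcmr and Fcrl5 are genes of mature B cells, the last 4 with log2 fold changes of 6.80 ± 0.48, 7.42 ± 0.30, 6.74 ± 0.43 and 8.12 ± 0.63. Cyp26b1, which breaks down retinoic acid, had 1 count in all at 2 weeks and stood at 3.79 to 15 CPM at 20 weeks. Wnt10a, a Wnt ligand, was at 13.4 and 25.4 CPM in the mutant and 11.4 and 16.7 CPM in the WT libraries at 20 weeks, against 0 and 0.399 CPM in the mutant and 0.483 and 0.91 CPM in the WT libraries at 2 weeks. Lipc, hepatic lipase, was at 17.3 and 23 CPM in the mutant and 11.6 and 12.3 CPM in the WT libraries at 20 weeks, against 0.0849 and 0.24 CPM in the mutant and 0.543 and 0.239 CPM in the WT libraries at 2 weeks. For each of these the 4 libraries at 20 weeks lay far above those at 2 weeks. The remaining rises were those of Cpne8, Npdc1, Slco2a1, Cacna1i, Dtx1, Il9r and Clec1a, with log2 fold changes from 4.79 for Il9r to 6.34 for Dtx1. Of the 15 largest falls, Chil3, Ltf, Cd177, Ngp, Lcn2, Mmp8, Camp, Retnlg, S100a9 and Itgb2l are genes of neutrophils or their precursors, Add2 and Ermap of red cells and Epx of eosinophils, and Abca13 and Chil1 complete the set.

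The time differences were also set side by side for the genotypes. Fitted alone, mutant and WT libraries gave the same sign for 77.6% of all 17273 genes. They did so for 6343 of the 6346 called genes, which were chosen by a fit to the same libraries and so favour that agreement, and the other 3 had no count in 1 genotype. The difference of the time effect between mutant and WT cells was called for 1 gene of 17273 (0.00579%), with 890 at an unadjusted p under 0.05. Eps8l1, an actin regulator gene (GRCm39 chromosome 7, 4463673 to 4483486), was at 20 and 19.6 CPM in the mutant and 15.9 and 16 CPM in the WT libraries at 20 weeks, against 6.73 and 8.19 CPM in the mutant and 0.181 and 0 CPM in the WT libraries at 2 weeks. Both mutant libraries at 2 weeks stood above both WT libraries, which were at or near 0, and the times did not overlap in either genotype. The difference of the log2 time effects, mutant minus WT, was -6.16 with edgeR adjusted p = 0.0165. Its size is loosely set, since the WT libraries at 2 weeks held almost no counts. It was -11.1 without WT replicate 1 and -5.06 without WT replicate 2 at 2 weeks. With all 16 HSPC libraries the call was lost. Over both genotypes the log2 fold change of Eps8l1 was 3.48 ± 1.24 with edgeR adjusted p = 0.0692. DESeq2 called 13 genes for this difference and edgeR without the count filter 43, and 76 were called without mutant replicate 2 at 2 weeks. The libraries also differed in the genes left at 0: of the genes tested, 933 had no count in either mutant library at 2 weeks and 265 none in either WT library at 2 weeks, against 218 and 274 at 20 weeks. With mutant libraries alone 2840 genes were called between the times, and with WT libraries alone 5189. The mutant replicates at 2 weeks were the least alike, with 4230 genes over 2-fold apart, against 2682 for WT at 2 weeks. Whether the spread of these libraries or the genotype lies behind these counts was not tested.

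**Figure D5:**
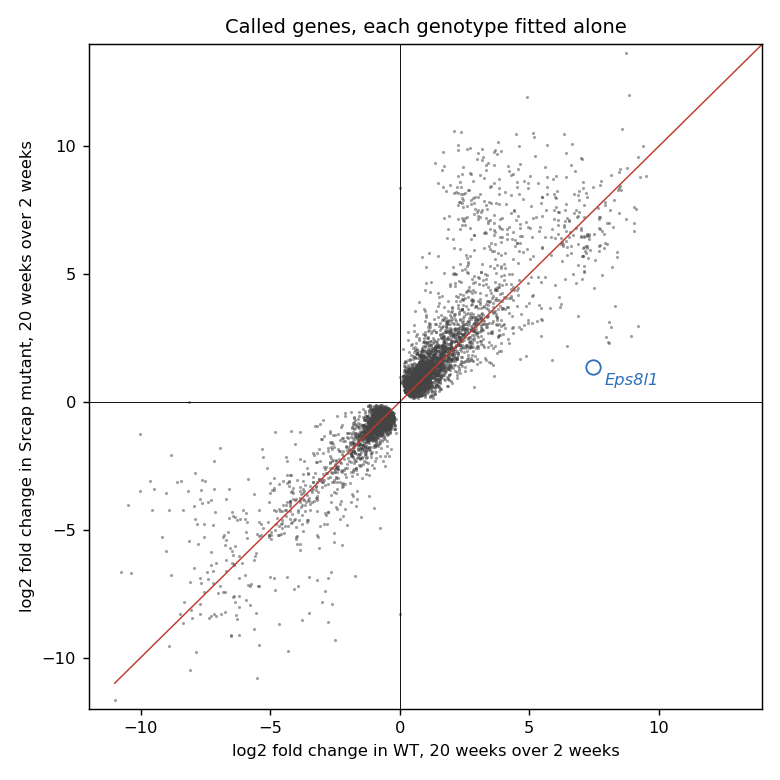
Log2 fold changes of 20 weeks over 2 weeks of the 6346 called genes, with Srcap mutant libraries fitted alone on the vertical axis and WT libraries fitted alone on the horizontal axis. The line marks equal values. Genes were chosen by the fit to all 8 libraries, which favours equal signs. Eps8l1, circled, was not called between the times over both genotypes and lies below the line, with 1.35 in the mutant and 7.48 in the WT libraries.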

How the data were processed

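RNA-seq libraries of sorted mouse HSPCs were prepared with a stranded mRNA kit, per the labels' protocols. The authors deposited 1 table per library of raw counts of read pairs per gene, made with featureCounts 2.0.1 in paired mode with the reverse strand setting (-s 2) and gene models of GENCODE M28, as the file headers record. FastQC, STAR, Subread and the builds mm39 and mm10 are named, with no version of the tools, per the submitters' processing notes. Coordinates are those of the count files, which match GRCm39.

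Of 55414 gene IDs, 52081 had a symbol in the reference table (99.85% of counts). Immunoglobulin genes and Jchain (396 genes) and genes outside the autosomes were removed, leaving 50732. Genes were filtered with filterByExpr (minimum count 10, minimum total 15), scaled with TMM and tested with edgeR 4.0.16 (R 4.3.3) by the robust quasi-likelihood test with time and genotype as terms. The p-values were adjusted by the Benjamini-Hochberg method over the 17273 genes and called under 0.05. Printed errors of log2 fold changes are SE, and those of CPM are SD over 4 libraries. CPM are raw counts per 1e6 autosomal counts without immunoglobulin genes. The scripts were tested on simulated counts. DESeq2 1.42.0 and other settings served as alternatives.

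Libraries were grouped by label. Replicates differed by more than sampling noise, and same-numbered replicates of different groups did not deviate together (correlations from -0.0268 to 0.0958), so the numbers were not taken as pairs. Replicate numbers are those of the labels. The file headers number WT replicate 2 of both transplant sets as 3.

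The libraries compared, the 34 gene lists and the rule for named genes were chosen with earlier results of these data known. Named genes are Srcap, Kit, Cd34 and Ptprc, the 15 largest called log2 fold changes in each direction among symbols that are not gene models, a log2 CPM averaging 2 or more and non-overlapping libraries, the 4 members of each list with the smallest p, and called genes of the genotype difference. Other members named in the text, such as Gata2, Cdkn1c, Ccnd1, Mki67, Mcm5, Myc, Elane, Pax5, Ebf1, Igll1, Flt3, Dntt, Fos, Cxcr4 and the globin genes, were chosen after their values were seen. Of the 818 list entries, 796 were tested. The remainder lay on sex chromosomes, had too few counts or, for Fam46c, matched no symbol among the genes counted. Promoter sequences come from RefSeq (GRCm38.p6), 1 start per gene, and symbols without an entry were not searched.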

Additional observations from a re-analysis of the deposited data

Results flagged for a closer look

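Within the 4 libraries of each time, 388 values were screened for a single library standing apart from the other 3 (Dixon's criterion), and 26 did. For independent normal values chance gives about 1 in 20, but CPM and shares of overlapping lists need not behave so. Mutant replicate 1 at 2 weeks gave 8 of the 26. It held 520 CPM of Tfrc where the others held at most 377 CPM, 56.1 CPM of Mmrn1 where the others reached 29.6 CPM, 0.892 CPM of Cacna1i where the others reached 0.181 CPM and 2.25 CPM of Clec1a where the others reached 0.335 CPM. It was low for Icam1 at 26.2 CPM, Ms4a6c at 39.3 CPM and Sc5d at 16.1 CPM, and its share for MYC and ribosome biogenesis was high at 1.21%. WT replicate 1 at 2 weeks gave 6, of which neutrophil genes were the largest group: S100a9 at 304 CPM against 1044 CPM or more in the others, Chil1 at 2.23 CPM, Itgb2l at 8.27 CPM and the neutrophil share at 0.146%. It also held the 2-week counts of Cr2, at 0.121 CPM, and of Cyp26b1, at 0.0302 CPM, with the others at 0. Where the others are at 0, any count stands apart under this criterion. Mutant replicate 2 at 2 weeks stood apart for Ier5, at 23.6 CPM.

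Mutant replicate 1 at 20 weeks gave 6: Gzmb at 0.669 CPM, S100a9 at 47.2 CPM where the others reached 16.9 CPM, and the shares of ribosomal proteins at 11.7%, of homing genes at 0.524%, of iron and heme genes at 0.275% and of p53 targets at 0.135%. Mutant replicate 2 at 20 weeks held the highest share of quiescence genes, 0.326%. WT replicate 1 at 20 weeks stood apart for Gstm2 at 14.5 CPM, Oasl1 at 9.73 CPM and Csf1r at 22.4 CPM, where the others reached 10.7 CPM for Csf1r. WT replicate 2 at 20 weeks stood apart for Hmga1 at 111 CPM.

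The time effect of Eps8l1 differed between genotypes, mutant minus WT, by -6.16 on the log2 scale with edgeR adjusted p = 0.0165. That size is loosely set, because the WT libraries at 2 weeks were at or near 0. In the transcripts left out of the comparison, immunoglobulin genes and Jchain took 16.9% of the counts in the lowest and 26.7% in the highest 20-week library, above the untreated libraries. Xist, from the X chromosome, was at 545 CPM in the lowest and 1339 CPM in the highest 2-week library, also above the untreated libraries.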

How the results depend on the processing

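The number of genes called between 20 and 2 weeks was 6346 and lay from 4986 to 6331 when 1 library was left out and from 5189 to 7729 under the other settings, except with mutant libraries alone, where it was 2840 and each time holds 2 libraries. No called gene changed sign under a setting in which it was tested. The number of called genes at least 2-fold apart was 2887, from 2477 to 2846 without 1 library, and 1726 when only the genes whose log2 CPM averaged 2 or more were tested, a setting chosen after seeing the data that leaves fewer genes. The median of all genes lay between 0.0054 with abundant genes only and 0.13 with upper-quartile size factors, where 59.1% of calls were rises, against 54.5% here. Adding the replicate number as a block gave 6284 called genes, 2752 of them at least 2-fold apart, and 1 for the difference between genotypes.

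The count for the difference between genotypes was 1, and 43 without the count filter, 13 in DESeq2 and 0 with all 16 HSPC libraries. Without 1 library it lay from 0 to 76, the highest without mutant replicate 2 at 2 weeks. The cause was not tested. Among lists, the ribosomal protein count fell to 12 rises with mutant libraries alone, and genes of oxidative phosphorylation fell in 9 of 42 cases, or 18 without mutant replicate 1 at 20 weeks. Depth limits genes with few counts: 127 called genes had no count at 2 weeks and 65 none at 20 weeks, and their fitted sizes are no bound.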

Other observations

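Megakaryocyte and platelet genes split. Of 22 tested, 11 rose and 3 fell, with 6 rises without mutant replicate 2 at 20 weeks and 6 with either genotype alone. Mmrn1, a platelet granule protein, was at 127 and 193 CPM in the mutant and 222 and 169 CPM in the WT libraries at 20 weeks, against 56.1 and 29.6 CPM in the mutant and 25 and 27.7 CPM in the WT libraries at 2 weeks, and rose by 2.33 ± 0.25 on the log2 scale. Selp, P-selectin of platelet granules and endothelium, rose by 1.04 ± 0.21, and Vwf, the adhesive protein von Willebrand factor that also marks a stem cell subset, by 0.65 ± 0.17. The 3 falls were those of Itga2b, which encodes CD41, Gp5, a platelet glycoprotein, and Thbs1, thrombospondin, with log2 fold changes of -1.19 ± 0.22, -1.45 ± 0.17 and -3.74 ± 0.58. The list took 0.103% to 0.132% of the counts at 20 weeks, against 0.0556% to 0.0932% at 2 weeks.

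Of 10 fetal-type and imprinted growth genes tested, out of 17 listed, 4 fell and 0 rose. Hmga2, a chromatin protein of fetal stem cells, was at 10.9 and 10.8 CPM in the mutant and 9.87 and 8.96 CPM in the WT libraries at 20 weeks, against 28.2 and 29.1 CPM in the mutant and 24.3 and 27.8 CPM in the WT libraries at 2 weeks, with a log2 fold change of -1.49 ± 0.16. Lin28a, an RNA-binding protein that blocks let-7, was at 0.0361 and 0.242 CPM in the mutant and 0.18 and 0.128 CPM in the WT libraries at 20 weeks, against 3.93 and 3.51 CPM in the mutant and 1.72 and 5.61 CPM in the WT libraries at 2 weeks. The sets did not overlap for either gene.

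Of 42 nuclear genes of oxidative phosphorylation 9 fell and 0 rose, or 18 fell without mutant replicate 1 at 20 weeks, with a median log2 fold change of -0.19, and Uqcrc1, a core subunit of complex III, had -0.76 ± 0.12. Of 19 glycolytic genes 6 fell and 3 rose, or 10 fell without mutant replicate 1 at 2 weeks, Hk1, the first enzyme of the pathway, with -1.04 ± 0.13 and Ldhb, a lactate dehydrogenase chain, with 2.53 ± 0.28. The share of oxidative phosphorylation genes that fell, 21.4%, lay between the 16.7% of all genes and the 23.7% of the more abundant ones. Of 20 genes of cholesterol synthesis 5 rose and 5 fell, 25% each, near the 24.4% and 23.7% of the more abundant genes. Without WT replicate 2 at 2 weeks 0 fell, without mutant replicate 2 or WT replicate 1 at 20 weeks 2 fell, and without WT replicate 2 at 20 weeks or WT replicate 1 at 2 weeks 3 fell. Of 16 heat shock genes 5 fell and 1 rose, the mitochondrial chaperone gene Hspd1 with a log2 fold change of -0.95 ± 0.14.

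Of 22 genes of T and NK cells 7 rose and 1 fell. Cd8b1, a chain of the CD8 coreceptor, had no count at 2 weeks and was at least 29.6-fold higher at 20 weeks against a floor of 3 counts per library at 2 weeks, and the granzyme gene Gzmb had a log2 fold change of -3.55 ± 0.30. The list took 0.0189% to 0.0274% of the counts at 20 weeks, against 0.0134% to 0.017% at 2 weeks. Of 14 genes of stroma and endothelium 5 fell and 1 rose, the sialomucin gene Emcn, which stem cells also carry, by 1.99 ± 0.21.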
